A study of Mus musculus with 6 samples.

Results

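The tubulins and kinesins of mouse testis were followed across 6 RNA-seq libraries. Rows of the deposited gene table were taken as members where the symbol named an alpha, beta, gamma, delta or epsilon tubulin, or a kinesin motor of the Kif or Kifc series. The rule used names alone and no measured value. It found 63 of 34144 gene rows, made up of 19 tubulins, 43 kinesins and 1 antisense row, Kif16bos. Of these, 59 passed the low-count filter and were tested, and Kif12, Kif28, Tubb1 and Tubb4a did not pass it.

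The libraries came from the testes of 3 Nsun7-/- mice and 3 wild-type mice. All 6 mice had the C57Bl/6J background and were 3 months old. Total RNA was taken from the tubules left after the testis capsule had been removed, and ribosomal and globin RNA were depleted. The knockout allele is not described in the sources used here. Nsun7 is a putative RNA methyltransferase of the NSUN family. The series title ties it to where the columns of the sperm tail lie. The comparison therefore asked whether the transcripts of the microtubule track and its motors differed without Nsun7. Each library was bulk tissue, in which fewer cells of a type and less RNA per cell cannot be told apart.

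Microtubules are hollow polymers of paired alpha and beta tubulin. In testis they form the meiotic spindle, the manchette that shapes the spermatid head, and the axoneme of the sperm tail. Gamma tubulin seeds them, and delta and epsilon tubulin belong to centrioles. Kinesins are motors that use ATP to walk along microtubules with cargo, to slide them past each other or to take them apart at their ends, and the families differ in which of these they do. Mammals carry several genes for alpha and beta tubulin, called isotypes, whose proteins are nearly alike except at the last residues of the chain. That tail faces outwards and carries much of the chemical modification of microtubules, so the last coding bases of some of the abundant isotypes are printed here.

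For the alpha tubulins the last 60 coding bases, stop codon included, are given from GENCODE M21 (build GRCm38), with capitals where the base differed from Tuba3a in the alignment of the whole coding sequences. They show how close the testis pair Tuba3a and Tuba3b are to each other and how far Tuba8 is from both.
Tuba3a: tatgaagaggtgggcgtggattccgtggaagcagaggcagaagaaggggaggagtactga
Tuba3b: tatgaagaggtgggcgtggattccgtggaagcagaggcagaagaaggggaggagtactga
Tuba8: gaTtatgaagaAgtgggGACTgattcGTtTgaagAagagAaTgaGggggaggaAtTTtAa

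For the beta tubulins the same window is given, with capitals where the base differed from Tubb4b, the beta isotype of cilia and flagella.
Tubb4b: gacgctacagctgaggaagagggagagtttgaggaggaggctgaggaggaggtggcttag
Tubb5: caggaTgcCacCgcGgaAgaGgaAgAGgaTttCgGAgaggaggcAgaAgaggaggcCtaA
Tubb3: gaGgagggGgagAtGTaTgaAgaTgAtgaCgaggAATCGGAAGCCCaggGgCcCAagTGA

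For the minus-end motors of the kinesin-14 family, the window of Kifc1 and its close relative Kifc5b is given because their reads are hard to keep apart, with capitals where Kifc5b differed.
Kifc1: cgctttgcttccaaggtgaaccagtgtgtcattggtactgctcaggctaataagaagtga
Kifc5b: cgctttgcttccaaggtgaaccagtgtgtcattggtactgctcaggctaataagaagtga

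Tuba3a and Tuba3b, both on chromosome 6, matched at 96.97% of their coding bases. All 41 mismatches fell in different codons, and 0 of those 41 codons coded for another amino acid, so the genes encode the same protein. Tuba8, on chromosome 6, matched Tuba3a at 81.01%, with 17 capitals in the window. Against Tubb4b, Tubb5 matched at 82.21% and Tubb3 at 82.04%, with 17 and 29 capitals. Kifc1 and Kifc5b, both on chromosome 17, matched at 98.12% and ended in the same 60 bases.

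Such likeness limits how firmly reads can be given to 1 gene. Cut into stretches of 31 bases, the transcripts of Tuba1b and Tuba1a held 21.34% and 21.43% of stretches found in no other annotated gene. The shares were 48.55% for Tuba3a and 56.91% for Tuba3b, which mostly overlap each other, 42.77% for Kifc1, 48.39% for Kifc5b, and 47.0% for Tubb4b, whose closest copy was the pseudogene Tubb4b-ps1. Tuba4a shared 35.63% of its stretches with its neighbour Stk16 and Kif20a 26.73% with Cdc23. Kif17, Kif2b, Kif9, Kif1b and Tubb3 lay at 96.79% or more. Values of the near-identical genes are therefore uncertain as single genes. No source used here states that counting kept strand, so reads of Kif16b and its antisense row, and of other overlapping genes, cannot be told apart.

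The target of the knockout was checked first. Nsun7 stood at 18.03, 17.81 and 25.17 CPM (read counts scaled to library size with edgeR's TMM factors) in Nsun7-/- testes, against 36.65, 35.71 and 37.22 CPM in wild-type testes. Every Nsun7-/- library lay below every wild-type one, and the message was reduced and not absent (log2 fold change -0.84, SE 0.15, edgeR adjusted p = 0.016). The value stayed below 0 in every alternative run, with adjusted p between 3.24e-05 and 0.395. The call was lost without any 1 wild-type mouse, without Nsun7-/- mouse 2, and on TPM.

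The 6 libraries held 25014898 to 28558865 estimated counts in the knockout and 23480448 to 26102343 in wild type. Nsun7-/- mouse 3 stood apart among the knockouts for many members. Rmrp, a short non-coding RNA, took 11.35% to 17.5% of all TPM (a level corrected for transcript length and scaled to a fixed total) in the knockout and 15.72% to 33.34% in wild type. TPM of every other gene moves with that share. For this reason TPM is used here to compare genes within a library, and CPM to compare genotypes.

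The testis isotypes were by far the most abundant tubulins. Tuba3a averaged 1995 ± 270.1 TPM in Nsun7-/- testes and 2021 ± 182 TPM in wild-type testes (SD, n = 3 each), and ranked between 22 and 28 among all gene rows in the 6 libraries. Tuba3b averaged 1959 ± 206 TPM in the knockout and 1889 ± 221 TPM in wild type. The order of this pair did not hold in every mouse, since Tuba3a was the higher in 5 of 6 libraries. Tubb4b came next at 1431 ± 143 TPM in the knockout and 1429 ± 113 TPM in wild type, below Tuba3b in 6 of 6 libraries.

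After a wide gap came the isotypes of most tissues. Tuba4a averaged 241 ± 35.8 TPM in the knockout and 209.5 ± 57.4 TPM in wild type. Tuba1b averaged 218.7 ± 35.1 TPM in the knockout and 213.4 ± 37.2 TPM in wild type, and Tuba1a averaged 216.2 ± 40.5 TPM in the knockout and 214.6 ± 55.0 TPM in wild type. These 3 neighbours did not differ beyond their spread, each exceeding the next in 3 of 6 libraries. The value of Tuba4a rested mostly on a short transcript of 782 bases, which held 51.99% of its TPM in the knockout and 51.22% in wild type.

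The remaining abundant tubulins kept 1 order in all 6 libraries. Mean TPM over all 6 was 158.5 for Tubb5, the beta isotype of dividing cells, 143.6 for Tuba8, 123.4 for Tubb3, best known from neurons, and 83.19 for Tuba1c. The rarer members had roles outside the wall of the polymer or were isotypes of other tissues. Tubg1, which seeds microtubules, averaged 29.25 TPM, and the centriole tubulins Tubd1 and Tube1 averaged 19.07 and 7.561 TPM. Tubg2, Tubb2b, Tubb4a and Tubb1, the last an isotype of platelets, averaged under 1 TPM.

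Among the kinesins Kif17 led. This kinesin-2 motor works in cilia and neurons and, in mouse spermatids, carries a partner of the transcription factor CREM. Kif17 averaged 252.8 ± 46.4 TPM in Nsun7-/- testes and 230.2 ± 58.0 TPM in wild-type testes (SD, n = 3 each). Kif2b, of the kinesin-13 family that takes microtubules apart, averaged 143.9 ± 48.2 TPM in the knockout and 101.2 ± 24.2 TPM in wild type. Kif9, a kinesin of the central pair of motile axonemes, averaged 127.0 ± 19.3 TPM in the knockout and 99.37 ± 20.7 TPM in wild type. Kif2b exceeded Kif9 in 4 of 6 libraries, so their order was not settled.

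Next came Kif2c, a depolymerase of the spindle, at a mean of 91.08 TPM over the 6 libraries, then Kifc3, a minus-end motor, at 75.15, and Kif20a, a motor of cell division, at 54.41. The chromosome-arm motor Kif22 averaged 43.39 TPM, the centriole kinesin Kif24 38.71, Kif18b, which acts at microtubule tips, 37.31, and Kif1b, which carries mitochondria and vesicles in neurons, 34.36. Kif24 exceeded Kif18b in 2 of 6 libraries. Of the 43 kinesins 26 had a mean of at least 10 TPM.

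**Figure D1:**
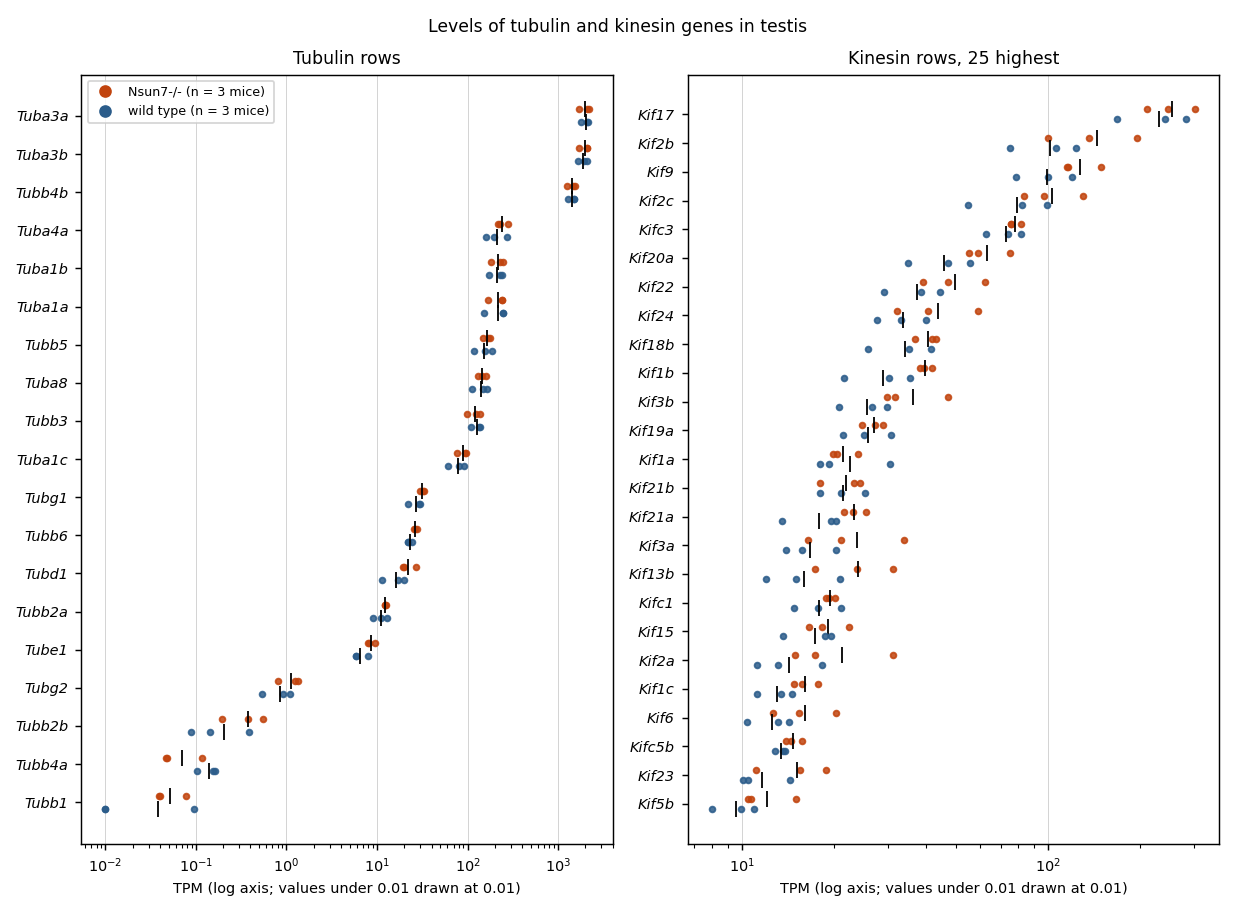
Level of each tubulin row and of the 25 kinesin rows of highest mean, in TPM on a log axis; each point is 1 mouse, Nsun7-/- above wild type within a row, and the black tick is the mean of 3 mice. Tuba3a, Tuba3b and Tubb4b stand apart from all other tubulins, and Kif17 leads the kinesins.

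The shares of the testis isotypes in the tubulin pool did not differ between genotypes beyond the spread of the mice. Tuba3a and Tuba3b together made up 81.8%, 80.58% and 81.52% of alpha-tubulin TPM in Nsun7-/- mice 1, 2 and 3, against 84.03%, 81.78% and 80.68% in the 3 wild-type mice. The genotypes overlapped, and the means differed by -0.8648 percentage points (two-sided exact permutation test, p = 0.5, where 3 against 3 libraries cannot go below 0.1). Tubb4b made up 81.34%, 81.74% and 81.55% of beta-tubulin TPM in the knockout, against 83.37%, 82.16% and 80.72% in wild type. Here too the genotypes overlapped (difference -0.5344 percentage points, exact p = 0.7). Without wild-type mouse 1 both differences turned, to 0.06887 points for Tuba3a with Tuba3b and 0.1099 points for Tubb4b. The 3 values of the knockout lay closer together than those of wild type for both shares. The minor isotype Tuba1c did not overlap. It made up 1.817%, 1.817% and 1.835% of alpha-tubulin TPM in the knockout, against 1.482%, 1.645% and 1.734% in wild type. That difference was seen among the single isotypes and was not tested.

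Ratios within a library were narrow. Tuba3a stood between 0.9803 and 1.1 times Tuba3b, between 1.328 and 1.438 times Tubb4b, and summed alpha tubulin between 2.645 and 2.868 times summed beta tubulin, over all 6 libraries. The kinesin share of tubulin plus kinesin TPM was wider, at 13.29%, 15.83% and 20.98% in Nsun7-/- mice 1, 2 and 3, against 12.72%, 13.87% and 15.15% in the 3 wild-type mice. Nsun7-/- mouse 3 was the highest of all 6, and the other values overlapped (difference 2.789 points, exact p = 0.3). Without that mouse the difference was 0.6515 points (exact p = 0.6).

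**Figure D2:**
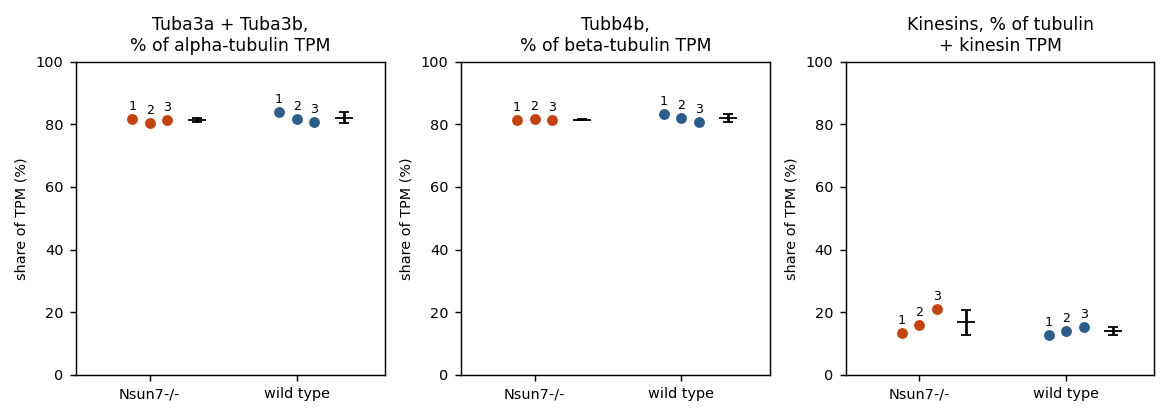
Share of TPM in percent for the testis alpha tubulins, for Tubb4b and for the kinesins; numbered points are single mice, Nsun7-/- left of wild type, with the mean and SD of 3 mice beside them. The alpha shares lie between 80.58% and 84.03% and the beta shares between 80.72% and 83.37%, and Nsun7-/- mouse 3 has the highest kinesin share at 20.98%.

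Within the kinesin pool, kinesin-2 motors, mostly Kif17, made up 23.94% ± 2.77 of kinesin TPM in the knockout and 25.54% ± 0.92 in wild type (SD, n = 3 each; exact p = 0.4). The kinesin-13 depolymerases made up 23.27% ± 3.21 in the knockout and 21.2% ± 0.846 in wild type (exact p = 0.4). Kinesin-6, the cell division motors Kif20a, Kif20b and Kif23, was at 6.312%, 5.929% and 6.408% in the knockout, against 5.765%, 5.55% and 5.661% in wild type. These ranges did not overlap (exact p = 0.1, the smallest that 3 against 3 libraries allow). Nor did the shares of Kif22, the kinesin-10 member, while those of the other 11 of 13 families did. The 2 families of 13 have no like background here. The 14.3% of all genes without overlap refers to CPM of single genes and not to family shares of TPM. Kif20a alone made up 4.774% of kinesin TPM in the knockout and 4.27% in wild type. Shares of other single kinesins also did not overlap, and in both directions. The share of Kif3c was higher in every knockout library, and those of Kif21b and Kif19a were lower. The kinesin-1 family of long-range cargo motors, Kif5a, Kif5b and Kif5c, held 1.595% ± 0.131 in the knockout and 1.623% ± 0.142 in wild type, and so was a minor part of the pool in testis.

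No tubulin or kinesin passed the comparison of genotypes. In edgeR's quasi-likelihood test 119 of all 21002 genes, or 0.567%, had a Benjamini-Hochberg adjusted p under 0.05, and 0 of the 59 members did, with 0.5663 as the smallest adjusted p, for Kif1b. At an unadjusted p under 0.05 there were 2 members, Kif1b and Kif13a, beside 8.39% of all genes. DESeq2 called 0 members, with 3 at an unadjusted p under 0.05, and limma voom 0 and 3. The 95% interval of the fold change lay within 1.5-fold either way for 42 of the 59 members. It lay within 2-fold for 58, the exception being the rare Tubb2b. The 1.5-fold bound held for 33 of 41 kinesins and for 9 of 17 tubulins. The lower ends for Tuba3a, Tuba3b and Tubb4b were 0.619, 0.6625 and 0.633 times wild type, so a fall past 1.5-fold lay within their intervals.

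CPM ranges of the genotypes did not overlap for 8 members, while 14.3% of all genes did not overlap. Kif1b, Kif13a, Kif21a, Kif3b and Kif20a lay higher in every Nsun7-/- library, beside 7.38% of all genes, and Tuba8, Kifc3 and Kif26b lay lower, beside 6.95%. Both counts were near the share among all genes.

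**Figure D3:**
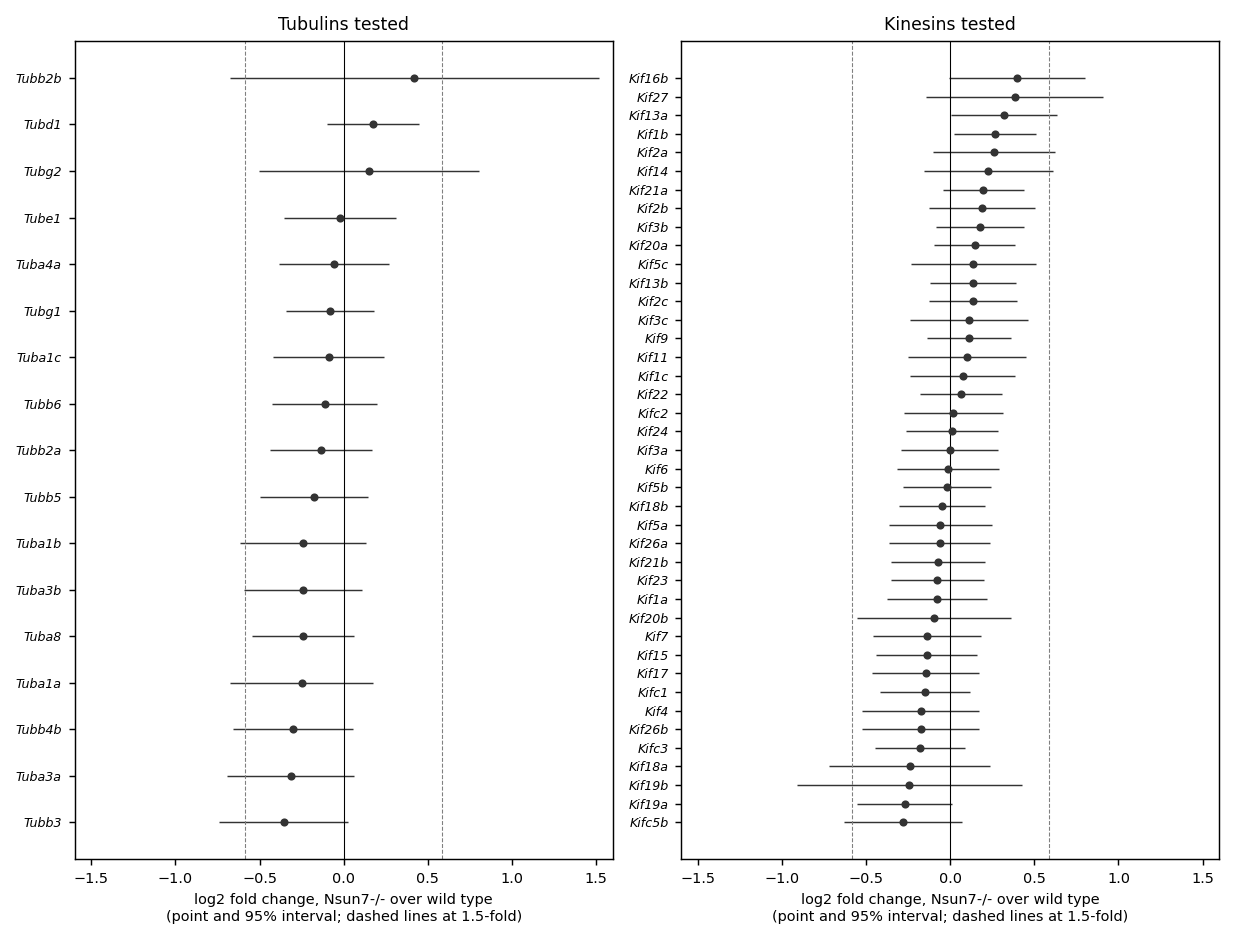
Log2 fold change of each tested tubulin and kinesin, Nsun7-/- over wild type, as a point with its 95% interval from edgeR (3 mice each); dashed lines mark 1.5-fold. Tubulin points sit mostly below 0 and kinesin points on both sides of it.

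The abundant tubulins all had values below 0 in the edgeR fit, although on log2 TPM all but Tuba3a and Tubb3 turned to 0 or above. In the knockout 1 mouse stood lowest. Tuba3a was at 2476, 2184 and 1489 CPM in Nsun7-/- mice 1, 2 and 3, against 2807, 2537 and 2305 CPM in the 3 wild-type mice. The genotypes overlapped, with Nsun7-/- mouse 1 above wild-type mouse 3 and Nsun7-/- mouse 3 far below the rest (log2 fold change -0.31, SE 0.18, edgeR adjusted p = 0.643). Tuba3b was at 2827, 2572 and 1822 CPM in the knockout, against 3054, 2813 and 2669.9 CPM in wild type. It showed the same order of mice within the knockout (-0.24, SE 0.16, edgeR adjusted p = 0.676). Tubb4b was at 1855, 1627 and 1188 CPM in the knockout, against 2136, 1917 and 1703 CPM in wild type, again overlapping (-0.30, SE 0.17, edgeR adjusted p = 0.641). Without Nsun7-/- mouse 3 the log2 fold changes were -0.14 for Tuba3a, -0.08 for Tuba3b and -0.15 for Tubb4b.

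Tubb3 and the general isotypes lay the same way. Tubb3 was at 197.7, 161.6 and 109.3 CPM in the knockout, against 208.8, 204.3 and 186.5 CPM in wild type. Its value was the lowest of the tested tubulins and did not pass (-0.36, SE 0.18, edgeR adjusted p = 0.619). Tuba1a was at 328.8, 304.5 and 182.5 CPM in the knockout, against 284.5, 365.1 and 320.5 CPM in wild type (-0.25, SE 0.19, edgeR adjusted p = 0.71). Tuba1b was at 319.5, 271.6 and 179.4 CPM in the knockout, against 294.6, 318.1 and 296.8 CPM in wild type (-0.24, SE 0.17, edgeR adjusted p = 0.691). In both genes Nsun7-/- mouse 3 lay below all other mice and Nsun7-/- mouse 1 within or above the wild-type range. Tuba4a had a smaller value (-0.06, SE 0.15, edgeR adjusted p = 0.923). Without Nsun7-/- mouse 3 the log2 fold changes were -0.16 for Tubb3, -0.04 for both Tuba1a and Tuba1b, and 0.09 for Tuba4a, whose sign turned.

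Tuba8 was the sole tubulin whose genotypes did not overlap, at 253.2, 262.7 and 182 CPM in the knockout, against 272.5, 279.4 and 274.2 CPM in wild type (log2 fold change -0.24, SE 0.14, edgeR adjusted p = 0.65). The centriole tubulins lay on either side of 0. Tubd1 was at 29.99, 28.05 and 32.16 CPM in the knockout, against 23.37, 28.03 and 28.51 CPM in wild type, overlapping by Nsun7-/- mouse 2 (0.17, SE 0.13, edgeR adjusted p = 0.696). Tube1 was at 8.165, 7.912 and 8.637 CPM in the knockout, against 9.105, 7.095 and 8.939 CPM in wild type, with full overlap (-0.02, SE 0.16, edgeR adjusted p = 0.972).

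Taken as a list, 14 of 17 tested tubulins had a value below 0 and the median log2 fold change was -0.14, where the median of all genes was 0.02. All 7 alpha tubulins were below 0, as were 5 of 6 beta tubulins. Nsun7-/- mouse 3 was the lowest of the 6 libraries for 12 of the 17 tubulins and all 7 alpha tubulins, beside 28.8% of all genes. The median deviation of the tubulins from their mean over the 6 libraries was 0.12, -0.02 and -0.45 on the log2 scale in Nsun7-/- mice 1, 2 and 3, and 0.08, 0.10 and 0.09 in the 3 wild-type mice. The median thus lay well below 0 in 1 knockout mouse of 3. Without Nsun7-/- mouse 3 the median was -0.04, with 5 of 17 tubulins above 0, and without it and wild-type mouse 1 it was -0.02, with 8 of 17 above 0. On log2 TPM with a pseudocount of 1 the direction turned, with 15 of 17 tubulins above 0 at a median of 0.16, less than the 0.24 by which all genes moved. After each library was centred on its median TPM, 2 of 17 were above 0.

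Some marker lists of other cells were also lowest in that mouse, and others were not. Of 11 marker lists, 7 had their lowest summed CPM in Nsun7-/- mouse 3, among them spermatogonia, spermatocytes and red blood cells. The red blood cell list rests on little, since globin RNA was depleted and 1 of its 5 genes was tested. By median deviation, pachytene spermatocytes were instead lowest in Nsun7-/- mouse 2 (-0.0354, against -0.025 in mouse 3). Macrophages were then lowest in Nsun7-/- mouse 3 (-0.3381, against -0.3374 in wild-type mouse 3). The summed CPM of the 12 Sertoli cell markers was 4168, 3628 and 2945 in Nsun7-/- mice 1, 2 and 3, against 4200.4, 4310.2 and 3551 in the 3 wild-type mice, and that of the 9 peritubular myoid markers was 792.8, 771.9 and 639.7 in the knockout, against 839.4, 874.8 and 820.3 in wild type. Of these Sertoli and peritubular markers 0 were called, and none was at 0 in any library. The 14 elongating spermatid markers summed to 7713, 10537 and 7679 in the knockout, against 9010, 8487 and 11071 in wild type, so that Nsun7-/- mice 1 and 3 were alike. By summed CPM the lists of round spermatids, Leydig cells, macrophages and endothelium were lowest in a wild-type mouse. Leydig cell markers summed to 5125.6, 3115.6 and 2330.1 in the knockout, against 3053.5, 2492.6 and 1899.2 in wild type, and 2 of 10 were called higher. Gene length moved with the mouse as well: among 4 equal classes of length the shortest genes deviated by -0.04 and the longest by 0.07 on the log2 scale in Nsun7-/- mouse 3. With the length trend of each library as an offset, 3 of 17 tubulins were above 0. The part of cell make-up in the tubulin values was not tested.

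**Figure D4:**
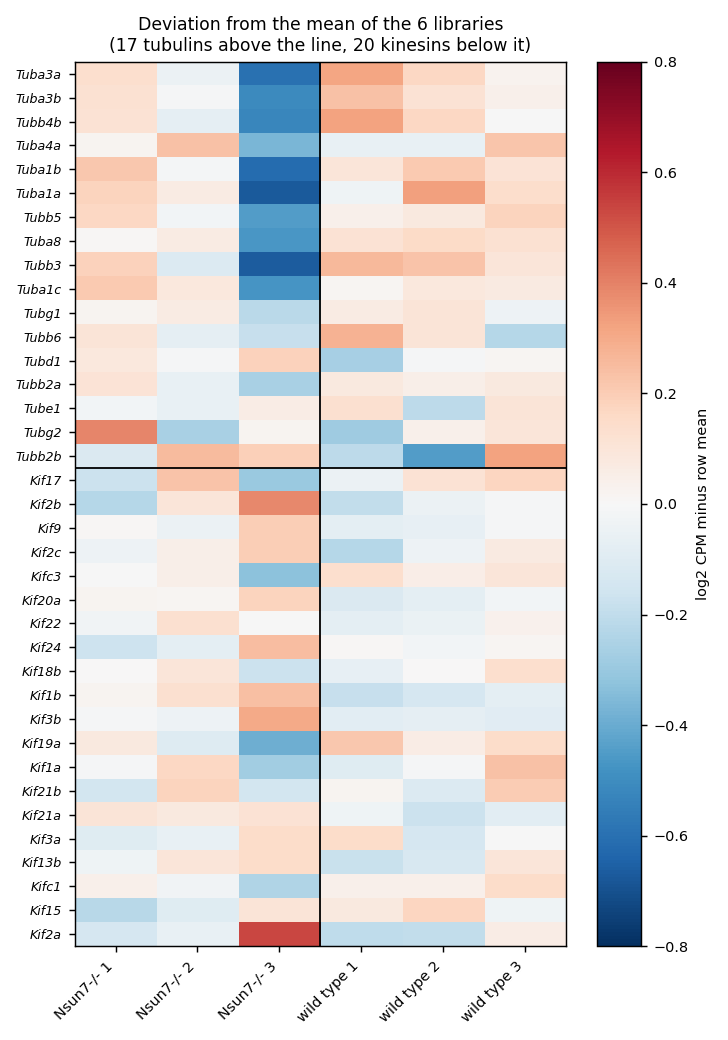
Deviation of log2 CPM from the mean of the 6 libraries for the 17 tested tubulins and the 20 kinesins of highest TPM among those tested, with Nsun7-/- libraries left of wild-type ones. The blue column of Nsun7-/- mouse 3 covers most tubulins and does not extend to the kinesins as a group.

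The kinesins were spread around 0. Of 41 tested 20 had values above 0, and the median was -0.004. Nsun7-/- mouse 3 was the highest library for 19 of the 41 kinesins, beside 31.2% of all genes, and the lowest for 11. Kinesins are long, with a median effective length (the length TPM uses) of 3029 bases. In the longest of the 4 length classes that mouse was highest for 2032 of 5251 genes and lowest for 1274. In that class 59.2% of genes had values above 0. The part of gene length in the kinesin values was not tested.

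Cargo motors of the kinesin-3 family gave the members of smallest p. Kif1b was at 115.8, 124.8 and 135.1 CPM in Nsun7-/- mice 1, 2 and 3, against 100.2, 104.1 and 108.1 CPM in the 3 wild-type mice. Its genotypes did not overlap in CPM, though the difference did not pass over all genes (log2 fold change 0.27, SE 0.11, edgeR adjusted p = 0.566). Kif13a, which carries endosomes, was at 11.08, 11.29 and 11.97 CPM in the knockout, against 8.154, 9.034 and 10.33 CPM in wild type, without overlap (0.32, SE 0.15, edgeR adjusted p = 0.59). Kif16b, a motor of early endosomes, was at 25.02, 33.52 and 45.84 CPM in the knockout, against 24.55, 25.47 and 29.4 CPM in wild type. Nsun7-/- mouse 3 was high and mouse 1 lay within the wild-type range (0.40, SE 0.19, edgeR adjusted p = 0.599), and leaving out mouse 3 gave 0.14. Of 7 tested kinesin-3 members 6 had values above 0, beside 52.5% of all genes and 59.2% of those in the longest length class. Nsun7-/- mouse 3 was the highest library for 5 of the 7 and the lowest for 2.

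Kinesins linked to cilia and tails are found among the kinesin-2, kinesin-4 and kinesin-9 members. Kif17 was at 558.1, 736.1 and 512.1 CPM in the knockout, against 607.7, 682.7 and 709.2 CPM in wild type, with the knockout on both sides of wild type (-0.15, SE 0.15, edgeR adjusted p = 0.766), and without Nsun7-/- mouse 3 the value was -0.05. Kif3b, a subunit of the motor that carries cargo along growing cilia, was at 137.3, 134.6 and 170.6 CPM in the knockout, against 130.2, 131.3 and 129.96 CPM in wild type, without overlap (0.18, SE 0.12, edgeR adjusted p = 0.68). Kif3a, its partner, had a value of -0.004 (SE 0.13, edgeR adjusted p = 0.993). Kif9 was at 213.2, 205.5 and 242.7 CPM in the knockout, against 200.5, 202.2 and 210.5 CPM in wild type, overlapping by mouse 2 alone (0.11, SE 0.12, edgeR adjusted p = 0.777), and without Nsun7-/- mouse 3 the value was 0.03. Kif6, its family partner, was at 18.51, 20.36 and 25.07 CPM in the knockout, against 22.51, 21.44 and 20.65 CPM in wild type (-0.01, SE 0.14, edgeR adjusted p = 0.982).

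Kif27 and Kif21a are kinesin-4 members. Kif27, linked to motile cilia, was at 30.8, 38.81 and 63.92 CPM in the knockout, against 32.07, 33.5 and 36.99 CPM in wild type. Nsun7-/- mouse 3 stood far above the others (0.38, SE 0.23, edgeR adjusted p = 0.666), and leaving it out gave 0.02. Kif21a, which slows microtubule growth, was at 41.55, 40.76 and 41.89 CPM in the knockout, against 37.78, 34.24 and 36.37 CPM in wild type, without overlap (0.20, SE 0.11, edgeR adjusted p = 0.65).

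The depolymerases belong to kinesin-13 and kinesin-8. All 4 kinesin-13 members had values above 0 and all 4 kinesin-8 members below it, none past the test, while on log2 TPM 39 of 41 kinesins were above 0. These signs turned for some members when a library was left out, and the difference between the families was not tested. Kif2b was at 175.2, 219.1 and 267.7 CPM in the knockout, against 179.2, 198.4 and 203.6 CPM in wild type, with knockout mice both below and above wild type (0.19, SE 0.15, edgeR adjusted p = 0.71), and leaving out Nsun7-/- mouse 3 gave 0.02. Kif2c had a value of 0.13 (SE 0.12, edgeR adjusted p = 0.748) and Kif24 of 0.01 (SE 0.13, edgeR adjusted p = 0.985), while Nsun7-/- mouse 3 was the highest library for all 4. Without that mouse and wild-type mouse 1, Kif2b, Kif2c and Kif24 turned to -0.03, -0.01 and -0.12, and Kif24 was also below 0 with RLE scaling, DESeq2 and voom. Kif19a, a kinesin-8 that trims ciliary tips, was at 62.33, 54.97 and 44.97 CPM in the knockout, against 68.76, 61.53 and 65.5 CPM in wild type, overlapping by Nsun7-/- mouse 1 (-0.27, SE 0.13, edgeR adjusted p = 0.607), and leaving out Nsun7-/- mouse 3 gave -0.16. Kif18b had a value of -0.05 (SE 0.12, edgeR adjusted p = 0.912), which was 0.02 without Nsun7-/- mouse 3 and 0.01 without wild-type mouse 3.

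Division and minus-end motors did not pass the test either. Kif20a was at 128.9, 128.2 and 143.4 CPM in the knockout, against 117.2, 120.1 and 125.1 CPM in wild type, without overlap (0.14, SE 0.11, edgeR adjusted p = 0.707), and Kif22 had a value of 0.06 (SE 0.11, edgeR adjusted p = 0.873). Kifc3 was at 129.2, 133.8 and 103.2 CPM in the knockout, against 142, 134.1 and 138.7 CPM in wild type (-0.18, SE 0.12, edgeR adjusted p = 0.68). Its highest knockout library lay just under its lowest wild-type one, and Nsun7-/- mouse 3 lay well below. Kifc1, which works in the spindle and at the spermatid nucleus, had a value of -0.15 (SE 0.12, edgeR adjusted p = 0.721). Kifc5b was at 21.02, 20.06 and 18.92 CPM in the knockout, against 30.71, 23.07 and 19.15 CPM in wild type, where wild-type mouse 1 stood high (-0.28, SE 0.16, edgeR adjusted p = 0.65). The split of reads between this pair is uncertain.

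Transcripts were tested one by one because a gene sum can hide a switch of isoform. Of 306 member transcripts 192 were tested and 0 were called, where 0.0272% of 58773 transcripts were called. At an unadjusted p under 0.05 there were 7 of the 192, while 4.76% of all transcripts had one. The smallest p belonged to a Kifc2 transcript of 3118 bases, ENSMUST00000230964, named here after its values were seen. It held 0, 0 and 0 estimated counts in the knockout, against 23, 40 and 35 in wild type, at least 11.9-fold lower when 3 counts are allowed per library, which covers counting error only (edgeR adjusted p = 0.182). It made up 8.008% of the gene's TPM in wild type, and Kifc2 as a gene had a value of 0.02 (SE 0.14, edgeR adjusted p = 0.976). Another Kifc2 transcript, of 3218 bases, held 143, 127 and 0 estimated counts in the knockout, against 36, 96 and 19 in wild type. The floor of 3 counts does not cover error in splitting reads among such transcripts, which was not tested. A Kif5b transcript of 1959 bases, also chosen by its values, held 46, 57 and 109 counts in the knockout, against 22, 24 and 32 in wild type (1.23, SE 0.34, edgeR adjusted p = 0.853).

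Proteins that fold, modify, cut or guide microtubules were followed in 7 lists. Of 158 tested genes in all, 0 were called. For the 22 tubulin folding genes the median of the log2 fold changes was -0.01, with 11 values above 0 and 0 at an unadjusted p under 0.05. Tcp1, a subunit of the chaperonin that folds tubulin, had a value of 0.25 (SE 0.15, edgeR adjusted p = 0.664). Pfdn5 and Vbp1, subunits of the prefoldin that feeds it, had values of -0.22 (SE 0.12, edgeR adjusted p = 0.637) and 0.71 (SE 0.34, edgeR adjusted p = 0.603), the last at 1.42 CPM or less in every library.

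Nucleation genes, 20 in number, had a median of 0.02 and 1 unadjusted p under 0.05, that of the augmin subunit Haus8 (-0.33, SE 0.15, edgeR adjusted p = 0.593). The spindle assembly factor Tpx2 was at 0.24 (SE 0.13, edgeR adjusted p = 0.637), and Haus4, the most abundant, at -0.03. The 29 tubulin-modifying enzymes had a median of 0.07 and 2 such genes. They were Agbl4, which removes glutamates from tubulin tails (0.27, SE 0.11, edgeR adjusted p = 0.567), and Ttll6, which adds them (0.32, SE 0.14, edgeR adjusted p = 0.589). Agbl5 stood at -0.08. The 11 severing and depolymerizing genes had a median of 0.13, with 9 above 0. The severing enzyme gene Katna1 was at 0.57 (SE 0.19, edgeR adjusted p = 0.404), Spast, another, at 0.39 (SE 0.17, edgeR adjusted p = 0.574), and Stmn1, which binds free tubulin, at -0.02. Of 26 microtubule-binding and plus-end genes 2 had an unadjusted p under 0.05, both below 0, Map7d1 at -0.34 (SE 0.12, edgeR adjusted p = 0.467) and Map1s at -0.32 (SE 0.15, edgeR adjusted p = 0.589), while Map4 was at 0.11.

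Among these lists the gene nearest the threshold was the kinesin light chain Klc3, which in rat binds the outer dense fibres and mitochondria of the sperm tail. Klc3 was at 39.3, 38.9 and 26.1 CPM in Nsun7-/- mice 1, 2 and 3, against 55.8, 51.1 and 57.9 CPM in the 3 wild-type mice. Each knockout library lay below each wild-type library, with mouse 3 lowest (log2 fold change -0.66, SE 0.15, edgeR adjusted p = 0.0917). The call depended on the setting, since DESeq2 gave an adjusted p of 0.00989 and edgeR without a low-count filter 0.0273, while the range over all settings ran up to 0.427. Without Nsun7-/- mouse 3 it was at -0.50 with an edgeR adjusted p of 0.0452. Klc3 overlaps Ercc2 on the other strand in GENCODE M21, and their reads cannot be told apart there. Its relative Klc2 was at -0.26 (SE 0.13, edgeR adjusted p = 0.613) and Arl8b, which links kinesin-1 to lysosomes, at 0.35 (SE 0.15, edgeR adjusted p = 0.567). The median over all 21 light chain and adaptor genes was 0.01.

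The 29 genes of cytoplasmic dynein and dynactin, the motor that walks the opposite way to most kinesins, had a median of 0.01. Its light chain gene Dynlt1b was at 241, 188.8 and 184.9 CPM in the knockout, against 638, 314.6 and 248.7 CPM in wild type, where wild-type mouse 1 stood high (-0.97, SE 0.37, edgeR adjusted p = 0.578). Dynlt1b has near-identical copies, so its reads are uncertain. Dynlrb1, another light chain, was at -0.36 (SE 0.15, edgeR adjusted p = 0.548).

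**Figure D5:**
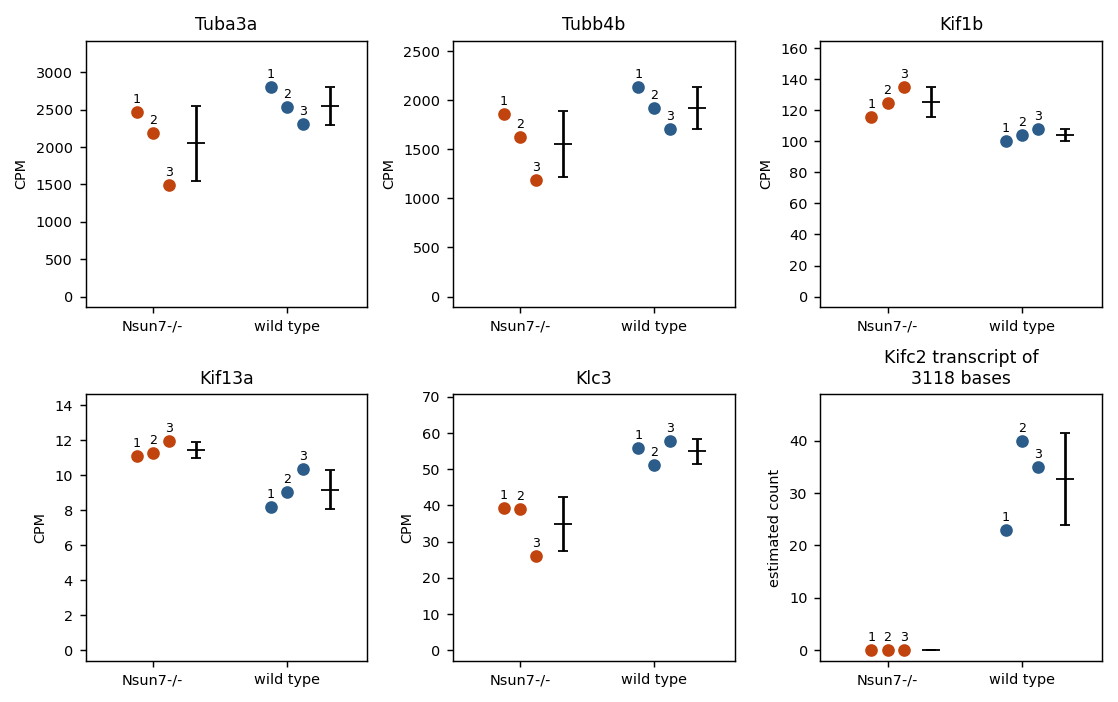
Values of the 6 libraries, Nsun7-/- left of wild type, for Tuba3a, Tubb4b, Kif1b, Kif13a and Klc3 in CPM and for the Kifc2 transcript of 3118 bases in estimated counts; numbered points are mice and bars are the mean and SD of 3. The genotypes overlap for both tubulins and do not for the other 4 panels.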

How the data were processed

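Testis RNA of 3 Nsun7-/- and 3 wild-type mice was sequenced after ribosomal RNA depletion, per the labels' protocols. The submitters' processing notes name kallisto 0.50.1 and the mm39 build; no source used here gives the annotation release or strand setting. Estimated counts, rounded, and TPM were deposited by the authors for 34144 gene symbols, as were estimated counts and TPM for 126126 transcripts. Of the sample columns 0 belonged to another series.

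Gene counts and rounded transcript counts went into edgeR 4.0.16 under R 4.3.3 (TMM, filterByExpr with minimum count 10 and total 15, robust quasi-likelihood test of genotype, Benjamini-Hochberg adjustment over all features, threshold 0.05), on 21002 genes and 58773 transcripts. Positive log2 fold changes mean higher in Nsun7-/-. SEs come from the test's F value. CPM uses TMM library sizes. Depth was 23480448 to 28558865 counts, and the biological coefficient of variation was 14.9%. The test was also run on counts simulated from edgeR's own dispersions. These lacked the outlying mouse and the length trend of the libraries, so that run does not check the test against either. Each library came from 1 mouse, per the labels' titles. Alternatives were RLE or upper quartile scaling, no filter or a mean CPM of at least 1, DESeq2 1.42.0, limma 3.58.1 on voom values or log2 TPM (pseudocount 1 or 0.1), the mouse number as a block, and each library left out; those added after seeing the data are named as such.

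Coding sequences came from GENCODE M21 transcripts (GRCm38), whose lengths matched the deposited ones for 306 of 306 member transcripts. All members but Kif19b (62 of 63) had one. The authors' build differs, so no coordinates are printed. Some sequences and overlaps are not reported here.

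Members and lists were chosen with earlier results of these data known. Named are the 6 tubulins and 10 kinesins of highest TPM, the 8 members of smallest p, members classed as testis or cilium associated, and from each list the 2 genes of smallest p and the most abundant. Members beyond this rule (Tuba8, Kif3a, Kif3b and others without overlap or of a family described) were named after their values were seen.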

Additional observations from a re-analysis of the deposited data

How the results depend on the processing

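Members called, tubulin or kinesin, stayed at 0 under every alternative run, with 0 to 13 of them at an unadjusted p under 0.05, and member transcripts called stayed at 0. Pathway genes called were 0 as reported, and 1 without a low-count filter, 1 with DESeq2, and 0 to 1 when single libraries were left out; the 1 was Klc3 each time, also without Nsun7-/- mouse 1 (edgeR adjusted p = 0.0172). Whether mouse numbers pair the libraries could not be settled with 3 mice per genotype. Deviations of same-numbered mice correlated at 0.221, -0.00683 and 0.26 over genes. Nsun7-/- mice 1 and 3 each correlated best with the wild-type mouse of the same number, while Nsun7-/- mouse 2 correlated best with wild-type mouse 3. With the number as a replicate block 0 members and 3 pathway genes were called (Klc3, adjusted p = 0.0107, Katna1 0.0491 and Dynlt1b 0.0113), and 331 of all genes against 119.

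Tubulins below 0 numbered 14, and 2 on log2 TPM with a pseudocount of 1, 2 with a pseudocount of 0.1, and 9 without wild-type mouse 1 and Nsun7-/- mouse 3, a pair chosen after seeing the data, as were the length offset and centred TPM. Leaving out 1 library gave 12 to 15. On log2 TPM with pseudocounts of 1 and 0.1, where all genes shifted by a median of 0.24 and 0.30, these log2 fold changes turned to 0 or above: Tuba3b (0.0530 and 0.0530), Tubb4b (0.0000 and 0.0000), Tuba4a (0.2258 and 0.2268), Tuba1b (0.0383 and 0.0385), Tuba1a (0.0278 and 0.0280), Kif17 (0.1512 and 0.1519), Kifc3 (0.1042 and 0.1055), Kif18b (0.2595 and 0.2665), Kif19a (0.0732 and 0.0761), Kif6 (0.3200 and 0.3398), Kifc1 (0.1321 and 0.1392), Kifc5b (0.1227 and 0.1305), Tube1 (0.3506 and 0.3938), Pfdn5 (0.1315 and 0.1324), Haus8 (0.0992 and 0.1090), Haus4 (0.2897 and 0.2914), Agbl5 (0.1935 and 0.1939), Stmn1 (0.2834 and 0.2845), Map7d1 (0.0114 and 0.0131), Map1s (0.0182 and 0.0184) and Klc2 (0.0830 and 0.0839). Centred TPM turned Kif6 (0.0322), Tube1 (0.0629) and Haus4 (0.0020). Without wild-type mouse 1 and Nsun7-/- mouse 3 the sign turned for Tuba4a (0.0421), Kif2b (-0.0276), Kif2c (-0.0113), Kif24 (-0.1197), Kif27 (-0.0171), Tube1 (0.0037) and Haus4 (0.0441). Kif24, at 0.0103, turned to -0.0007 with RLE scaling, -0.0006 with DESeq2, -0.0006 with voom, -0.0004 with the replicate block and -0.0218 with the length offset. Leaving out 1 library turned the sign for Haus4 (-0.0926 to 0.0108), Kif18b (-0.1113 to 0.0169), Kif24 (-0.1292 to 0.0816), Kif6 (-0.1524 to 0.0683), Stmn1 (-0.0471 to 0.0217), Tuba4a (-0.2008 to 0.0854) and Tube1 (-0.1396 to 0.0289). It also turned the difference in the share of Tuba3a with Tuba3b (-1.606 to 0.06887 points) and of Tubb4b (-1.216 to 0.1099 points). The causes were not tested. With 3 mice per genotype the 95% interval of 42 of 59 members held no change over 1.5-fold. This covered 33 of 41 kinesins but 9 of 17 tubulins, and not Tuba3a, Tuba3b or Tubb4b.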
